A study of Bos taurus with 2 samples.

Results

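The last 2 Mb of each of the 29 bovine autosomes were examined in sperm of Bull1 and Bull2, Holstein bulls that are monozygotic twins. A CpG site belonged to such an end when it lay within 2000000 bp of the largest listed position of its autosome and had at least 5 reads in both libraries. This held for 1112385 of the 1487261 CpG sites listed there, out of 23978882 sites used in the whole series. Both bulls were untreated artificial insemination sires, genetically identical twins whose frozen semen was taken at the same age. Bull1 had the higher sperm motility according to the study, and the series was made to compare twins of divergent male fertility. Each bull gave 1 whole-genome bisulfite sequencing (WGBS) library, so the tests compare the libraries, or regions within a library, not fertility classes, and have no replicate check. In WGBS, bisulfite converts unmethylated cytosines, and a cytosine that is still read as cytosine counts as methylated. The purity of the sperm was not checked here, because no annotation of the genome build of the files (UMD3.1) was used.

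Cattle autosomes are acrocentric: the centromere lies close to one end, and the highest positions lead towards the distal telomere. The subtelomeric DNA next to the telomere repeats is often rich in G, C and CpG in mammals. Most CpG sites of mammalian sperm are methylated. The usual exception is the CpG island, a stretch of dense CpG sites that tends to be free of methylation, often at a gene promoter. Dense CpG sites that are methylated are therefore the less usual case.

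The ends were rich in CpG sites and shallowly covered. They held 25.6 listed CpG sites per kb against 10.01 in the rest of the same autosomes and 11.3 in the first 2 Mb at the centromere side. The end was denser than the rest on all autosomes but autosome 27, where the ratio was 0.985, and the highest ratio was 4.28 on autosome 17. On 19 of 29 autosomes the end had the highest CpG count of all 2 Mb windows. Listed end sites had a mean of 13.3 reads in Bull1 and 12.7 in Bull2, against 20.8 and 19.02 in the rest. As a result 74.8% of end sites and 89.6% of other autosomal sites reached 5 reads in both libraries.

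Summed over reads, end sites were methylated at 77.9% in Bull1 (95% exact Clopper-Pearson interval 77.84 to 77.87%) and at 74.6% in Bull2 (74.57 to 74.61%). The rest of the autosomes was at 75.4% and 71.2%. The ends were thus 2.44 points higher in Bull1 and 3.35 points higher in Bull2 (two-sided Fisher exact test on reads, p too small to be told from 0 in both). Reads spanning several CpG sites were counted at each, so these p-values and intervals are narrower than independent molecules would give and cover counting error only. The direction turned with at least 20 reads per site, to -0.964 and -0.591 points, and for an end of 500000 bp, to -5.63 and -5.005 points. The excess in read sums was not that of the typical window. Windows of 100 kb had medians of 84.13% at the ends and 84.08% in the rest in Bull1. In Bull2 these medians were 80.76% and 79.97%. Centromere-side ends, the regions most alike in position, were far lower, at 55.4% and 52.6%. The telomere side exceeded them by 22.5 points in Bull1 and 22.0 in Bull2 (the same test, p too small to be told from 0), and by 13.8 and 13.4 points for ends of 5000000 bp. The excess was 16.4 and 15.9 points for means of site levels, and 19.7 and 19.3 without the very deep sites described below.

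The median over autosomes was lowest close to the last listed position. It was 69.9% in Bull1 and 66.6% in Bull2 in the last 100 kb, against 83.8% and 80.4% in the remaining part of the 2 Mb. The last 100 kb were the lower of the pair on 21 of 29 autosomes in Bull1 and on 22 in Bull2. With site means in place of read sums the counts were 23 and 24. CpG sites were sparser there as well, with a median of 16.5 per kb against 26.8. In the last 10 kb the levels in Bull1 ran from 9.77% to 91.5% between autosomes, with a median of 63.5%, and in Bull2 from 12.0% to 88.8%, with a median of 60.8%.

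**Figure D1:**
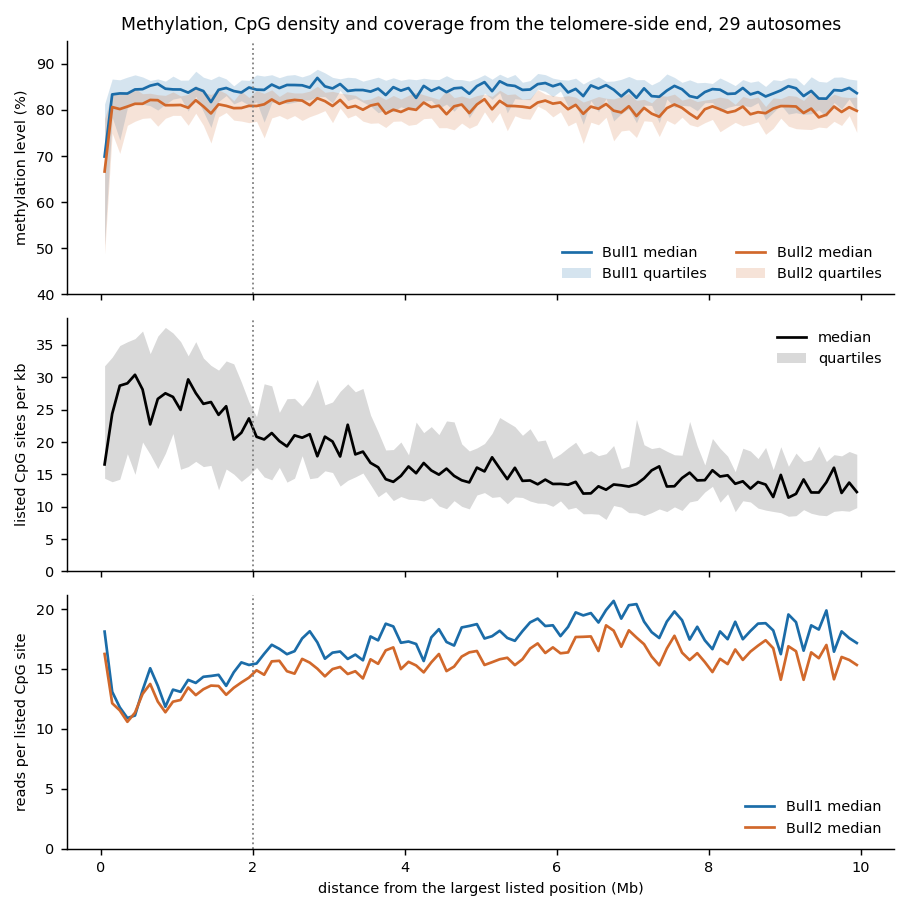
Methylation level (%), listed CpG sites per kb and reads per listed CpG site in 100 kb steps over the last 10 Mb, against distance from the largest listed position (Mb). Lines are medians over the 29 autosomes, shaded bands are quartiles, and the dotted line marks 2 Mb. The median level is 69.9% in Bull1 and 66.6% in Bull2 in the last 100 kb and already 83.4% and 80.6% in the next step, while CpG density is highest within the last 2 Mb.

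Dense CpG sites were more methylated at the ends than in the rest of the autosomes. Each site was classed by how many CpG sites, itself among them, were listed up to 100 bp away in either direction. In the densest class, 16 or more, the mean of site levels was 62.9% in Bull1 and 61.3% in Bull2 at the ends, against 21.5% and 20.6% in the rest. In the class of 11 to 15 it was 81.7% and 79.3% against 53.6% and 52.1%. In the sparsest class, 1 to 2, the ends were slightly lower, at 82.4% and 78.4% against 83.8% and 79.6%. Summed over reads, the densest class stood at 51.8% and 50.8% against 28.6% and 30.3%, and the class of 11 to 15 at 77.0% and 75.1% against 36.0% and 35.8% (two-sided Fisher exact test on reads, p too small to be told from 0 in each). Dense sites were also far more common at the ends. The densest class took 14.9% of listed end sites and 6.26% of those in the rest, and the class of 11 to 15 took 22.1% and 5.84%.

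**Figure D2:**
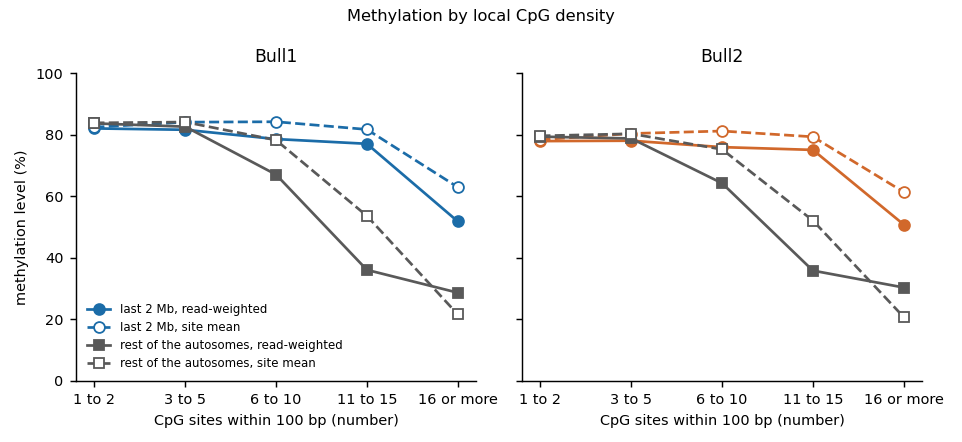
Methylation level (%) by number of CpG sites within 100 bp, for Bull1 and Bull2. Coloured points are the last 2 Mb, grey squares the rest of the autosomes, solid lines levels summed over reads and dashed lines means of site levels. Ends and rest lie within 2 points of each other up to 5 CpG sites and part from 6 to 10 upwards, to 62.9% against 21.5% for site means of the densest class in Bull1.

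When the rest was weighted to the density classes of the ends, the ends were higher by 11.3 points in Bull1 and 11.8 in Bull2. This excess was 3.52 and 3.49 points at sites with at least 20 reads, and 5.63 and 5.98 points for an end of 500000 bp. Compared autosome by autosome in read sums, the end was the higher in the class of 11 to 15 on 28 of 29 autosomes in both libraries. In the densest class it was the higher on 24 in Bull1 and 23 in Bull2. Site means gave 26 for the class of 11 to 15 and 25 for the densest class, in both libraries. Coverage limits these values, since 42.6% of the densest end sites and 38.1% of those in the rest reached 5 reads in both libraries. With at least 1 read the site means of the densest class fell to 44.4% and 43.2% at the ends and to 13.2% and 12.1% in the rest.

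In steps of 2 Mb, the finest computed for this class, the level of the densest sites was highest in the last 2 Mb. For site means in Bull1, it went from 62.9% in the last 2 Mb to 52.5% between 2 and 4 Mb, 41.8% between 4 and 6 Mb, 28.1% between 6 and 8 Mb and 27.0% between 8 and 10 Mb. In Bull2 the same steps gave 61.3%, 51.1%, 40.8%, 27.5% and 25.9%. Summed over reads the order was less regular, with 51.8%, 41.2%, 44.6%, 25.2% and 26.7% in Bull1. In the class of 11 to 15, site means in Bull1 went from 81.7% over 77.1%, 73.9% and 59.0% to 64.1%. In the class of 3 to 5 CpG sites, by contrast, the values in Bull1 stayed between 84.1% and 85.1% over these steps.

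Autosomes differed widely in this measure. The site mean of the densest class at the end ran in Bull1 from 11.3% on autosome 1 to 76.3% on autosome 5, with a median of 63.8%. In Bull2 it ran from 10.6% on autosome 18 to 74.2% on autosome 5, with a median of 62.4%. In the rest of the autosomes the range in Bull1 was 10.9% to 34.2%. Across the 29 ends the level followed the CpG density of the whole end, with Spearman's rho of 0.91 and Pearson's r of 0.87 in both libraries. These are descriptions without a p, because the points share 2 libraries and because denser ends kept fewer sites: the rho between the level and the share of sites used was -0.80 in Bull1.

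**Figure D3:**
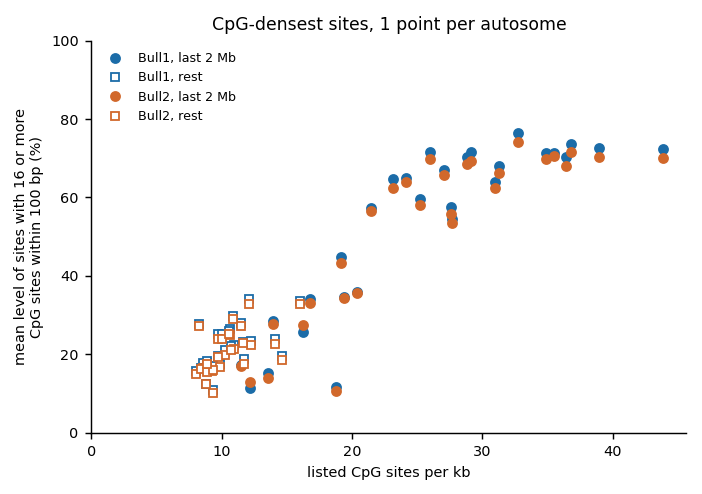
Mean methylation level (%) of sites in the densest class, 16 or more, against listed CpG sites per kb, 1 point per autosome, for the last 2 Mb (filled circles) and the rest of the autosome (open squares) in Bull1 and Bull2. Ends reach up to 76.3% in Bull1, while no rest exceeds 34.2%.

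Windows of 1 kb, counted back from the largest listed position, also differed between ends and rest where CpG sites were dense. Windows with at least 20 used sites numbered 24678 at the ends and 169795 in the rest. Of these, 79.4% at the ends and 64.0% in the rest were methylated at 80% or more in both bulls, and 4.96% and 17.6% were below 20% in both. The contrast was larger for windows with at least 40 used sites. These numbered 3967 at the ends and 17718 in the rest, so the ends had 18.3% of them with 2.89% of all autosomal windows. Of those at the ends, 3179 (80.1%) were methylated at 80% or more in both bulls and 372 (9.38%) were below 20% in both. In the rest the shares were 28.0% and 54.0%. The share of highly methylated windows of this density was larger at the end on 26 of 29 autosomes. Coverage of these windows had medians of 10.8 and 10.9 reads per used site at the ends and 11.8 and 11.5 in the rest.

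The 3 of these methylated windows with the most used sites, at a mean of at least 10 reads per site, are given as examples chosen after their values were seen. On autosome 9 from 103834220 to 103835219 (UMD3.1, positions as listed in the files), 89 used CpG sites were methylated at 91.1% in Bull1 and 92.3% in Bull2. On autosome 17 from 74612530 to 74613529, 88 sites were at 92.0% and 91.3%. On autosome 29 from 49701188 to 49702187, 82 sites were at 88.3% and 87.0%. None of the 3 windows passed the test between the bulls (Fisher exact test on summed reads with Benjamini-Hochberg adjustment over all windows, adjusted p = 0.595, 0.811 and 0.649). They are not typical of their density: the 20 end windows with 80 or more used sites had a median level of 29.2% in Bull1 and 32.2% in Bull2. Whether genes or repeats lie there was not analysed here.

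**Figure D4:**
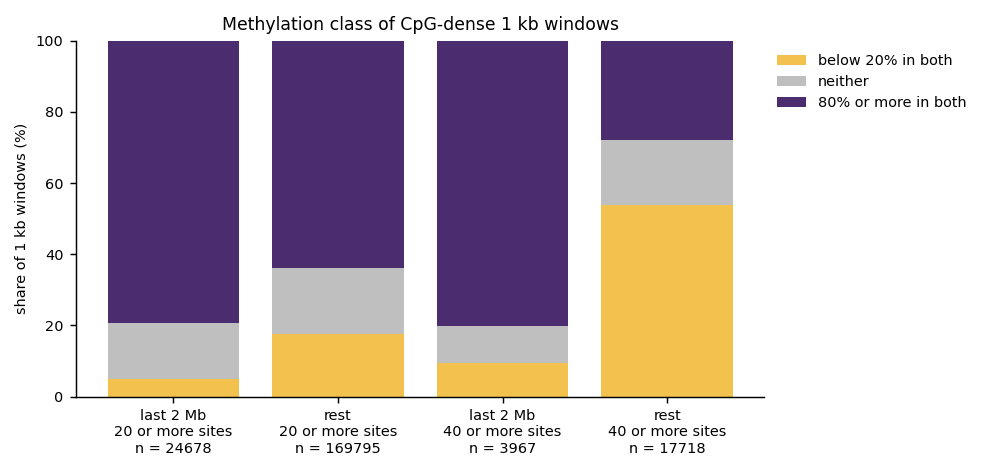
Share (%) of 1 kb windows below 20% methylation in both bulls, at 80% or more in both, or neither, for windows with at least 20 and at least 40 used CpG sites in the last 2 Mb and in the rest of the autosomes. With at least 40 sites the highly methylated share is 80.1% at the ends and 28.0% in the rest.

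Windows of low methylation were nevertheless present at the ends. Of 53774 end windows with at least 5 used sites, 3.83% in Bull1 and 3.95% in Bull2 were below 20%, against 2.73% and 2.77% in the rest (two-sided Fisher exact test on windows, p = 8.57e-48 and 4.65e-54). The test takes windows as independent, so these p are too small: low windows came in runs of up to 8 neighbours. Autosome 18 alone held 192 of the 1918 end windows low in both bulls. The excess of low windows turned into a deficit of -0.947 and -0.840 points with at least 10 used sites per window, and of -0.463 and -0.329 points with at least 20 reads per site. The direction thus depended on the number of CpG sites. Among windows of 5 to 9 sites, 2.61% were low at the ends and 0.607% in the rest in Bull1. Among windows of 40 to 79 sites, the shares were 9.48% and 57.0%. With 80 or more sites, in 20 end windows and 177 others, they were closer, at 40% and 47.5%. The median levels of these windows in Bull1 were 29.2% and 33.3%.

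Single autosomes were next compared with their own rest. The end was the higher on 21 of 29 autosomes and the lower on 8, in both libraries, and all 58 tests passed (Fisher exact test on reads, Benjamini-Hochberg adjusted). Which autosomes these were depended on the measure. For site means, the end became the lower on autosomes 1, 14, 24 and 28 in both libraries. It became the higher on autosomes 2, 4, 11 and 20 and, in Bull2 only, on 10. Autosome 1 went from 7.13 points in read sums to -4.88 for site means in Bull1. Without the very deep sites described below it was at -1.43. The highest end was that of autosome 5, with 85.2% in Bull1 (95% interval 85.1 to 85.3%) and 82.3% in Bull2. In Bull1 its interval overlapped those of autosomes 9 and 29, and autosome 29 was at 85.1% and 82.3%. The lowest was that of autosome 13, with 56.4% (56.3 to 56.5%) and 53.3%. Weighted to the density of each end, the rest was exceeded on 25 autosomes in Bull1 and on 26 in Bull2. As a description of how usual these levels are, the end lay within the range of the other 2 Mb windows of its autosome on all 29 in Bull1 and on 28 in Bull2.

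The extreme differences were much smaller without very deep sites. A site was called deep when its coverage was in the extreme upper tail of either library, above 467 reads in Bull1 or above 475 in Bull2. The ends held 1001 deep sites, which took 6.61% and 7.16% of end reads and lay on 13 of 29 ends. Autosome 13 had the largest negative difference, -24.4 points in Bull1 and -23.0 in Bull2, and 40.2% and 41.9% of its end reads lay at deep sites. Without deep sites the difference was -0.552 and -0.068. Autosome 29 had the largest positive one, 25.9 and 26.8 points, and there the rest held the deep reads, 31.9% in Bull1. Without them it was 8.40 and 9.74, and the largest positive difference was then that of autosome 8, 11.5 and 12.6 points. On autosome 18 the end stayed low without deep sites, by -8.04 and -8.03 points.

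**Figure D5:**
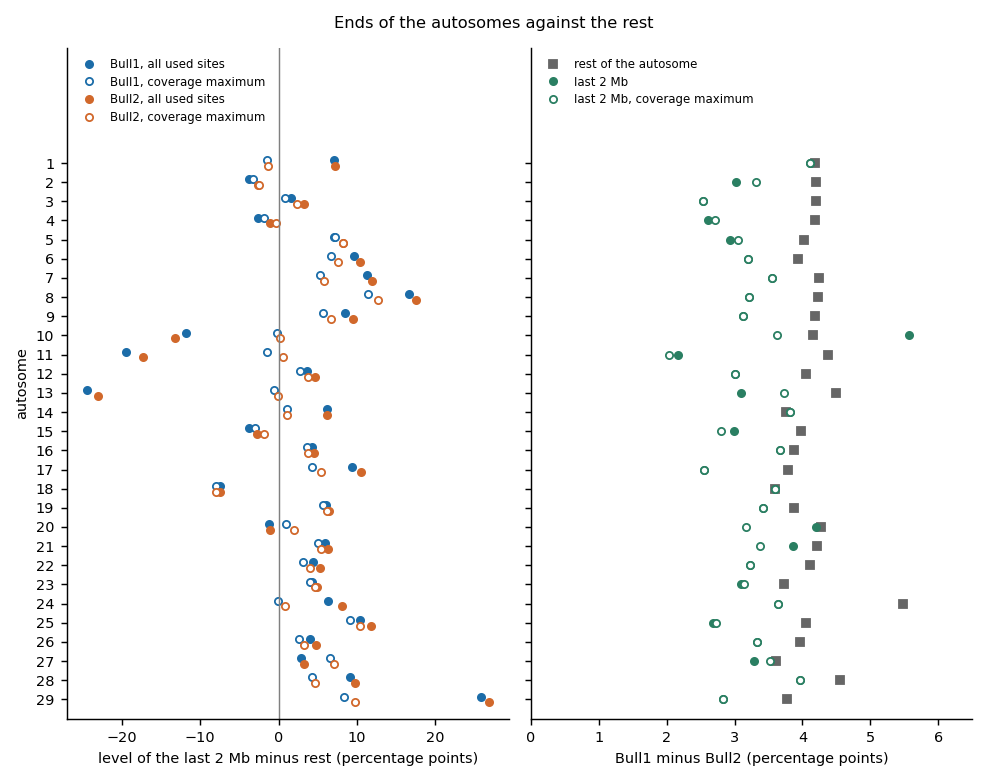
Left, level of the last 2 Mb minus the rest of the same autosome (percentage points) in Bull1 and Bull2. Right, Bull1 minus Bull2 (percentage points) for the last 2 Mb and for the rest. Filled circles use all used sites, open circles leave out sites above the coverage maximum of either library. Autosome 13 moves from -24.4 to -0.552 in Bull1 when deep sites are left out, and the bull difference of the ends lies between 2.18 and 5.57.

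Grouped in steps of 10 kb, the deep sites fell into 27 blocks, and the level was below 50% in 25 of them in Bull1 and in 24 in Bull2. The exceptions in Bull1 lay on autosome 23, from 52392222 to 52394291 at 67.9% in Bull1 and 64.4% in Bull2, and from 52349709 to 52349869 at 87.8% and 82.3%. The block with the most reads lay on autosome 13 from 83062228 to 83070248, where 156 deep sites had means of 1956 and 1915 reads and levels of 19.4% and 19.7%. On autosome 11 from 107284675 to 107290676, 163 deep sites were at 30.6% and 31.4%. On autosome 10, 55 deep sites from 104228404 to 104229012 were at 0.762% and 0.780%, and 52 from 104032795 to 104033195 were at 1.03% and 0.827%. Whether these sequences occur in several copies was not tested.

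The 3 lowest 100 kb windows held such blocks. The 580 end windows of 100 kb ran from 15.2% to 91.4% in Bull1, with a median of 84.1%, and from 12.8% to 88.0% in Bull2, with a median of 80.8%. By the mean of both bulls, the lowest was on autosome 10 from 104205012 to 104305011, at 15.2% and 12.8%, where 74.4% of Bull1 reads were at deep sites. It was followed by autosome 10 from 104005012 to 104105011, at 25.3% and 18.8%, and autosome 13 from 83040271 to 83140270, at 22.5% in both, with 66.4% and 90.7% of reads at deep sites. Low windows also lay farther from the last position: on autosome 3 from 119930182 to 120030181, chosen after its values were seen, the level was 30.5% and 30.4% with no deep site. The highest by the mean of both bulls held no deep site. They lay on autosome 23 from 51329701 to 51429700, at 91.4% and 87.7%, on autosome 25 from 41604147 to 41704146, at 91.0% and 87.8%, and on autosome 29 from 49705188 to 49805187, at 90.9% and 87.7%.

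The comparison of the twins asked whether the libraries differed at the ends as elsewhere. Bull1 was higher by 3.26 points at the ends and by 4.18 points in the rest, and the difference at the ends minus that in the rest was -0.913 points (95% interval ± 0.0285, counting error only). With at least 20 reads per site it was -0.373 points. The smaller difference held without deep sites, 3.16 against 4.10, for site means, 3.03 against 3.59, and with the rest at the CpG density of the ends, 3.76 in the rest. Centromere-side ends differed by 2.81 points, less than the telomere side, and X by 3.33 points. On single autosomes the ends differed by 2.18 points (autosome 11) to 5.57 points (autosome 10), with a median of 3.21. The interval of end minus rest lay below 0 on 24 autosomes, held 0 on 4 and lay above 0 on autosome 10, by 1.42 points (1.27 to 1.58). Without deep sites the bull difference at the end of autosome 10 was 3.63 points, smaller than that of its rest, which was at 81.1% in Bull1 and 77.0% in Bull2, so this exception did not hold without them.

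In windows of 100 kb, 574 of 580 (98.97%) end windows were called different, against 97.7% of all windows tested (Fisher exact test of summed reads, two-sided, Benjamini-Hochberg adjusted p of at most 0.05 over all windows of the genome). Of these 572 were higher in Bull1, against a background of 97.3%, and 2 were lower, against 0.387%. In windows of 1 kb, 7748 of 53774 (14.4%) were called, against 9.68% of all windows. Those higher in Bull1 numbered 7360 (13.7%, background 9.38%), and those lower 388 (0.722%, background 0.295%). The larger share at the ends went with more sites and reads per window, a median of 18 sites and 286 Bull1 reads against 9 sites and 200 reads in the rest, and the part of depth in it was not tested beyond the strata below. The median difference itself was smaller, 3.41 points against 3.89 over all windows. Reads spanning several CpG sites were again counted at each, so p is too small, and windows rich in sites are the most exposed to this. With only 1 site per window, which also leaves far fewer reads, 1 end window was called. How many of the calls rest on reads counted more than 1 time was not tested. Among windows with at least 200 and under 400 reads in the shallower library, 15.9% were called at the ends and 13.7% in the rest. The ends were also ahead at 100 to under 200 reads (8.44% against 7.71%), at 400 to under 800 (23.9% against 20.8%) and at 800 or more (32.7% against 21.8%). Below 100 reads the order turned, with 3.97% against 4.26% for at least 50 reads and 2.04% against 2.52% for under 50. Tested against the odds ratio of all used sites in place of 1, 2375 end windows (4.42%, against 2.43% of all windows) were called, 1563 higher and 812 lower in Bull1.

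Few single CpG sites were called. After adjustment, 2 of 1112385 end sites were called, against a background of 0.000342%. Both were higher in Bull1 (background 0.000321%) and 0 were lower (background 2.09e-05%). On autosome 23 at position 52393145 the level was 84.2% in Bull1 (1690 of 2006 reads) and 77.4% in Bull2 (1376 of 1777 reads; two-sided Fisher exact test, adjusted p = 0.0332). On autosome 27 at position 43575331 it was 73.8% (560 of 759 reads) and 58.2% (242 of 416 reads; the same exact test, adjusted p = 0.0256). Both were deep sites, and 0 were called with the coverage maximum. Without adjustment 19875 end sites (1.79%, background 2.88%) had a p of at most 0.05, of which 16776 were higher in Bull1 (1.51%, background 2.53%) and 3099 lower (0.279%, background 0.346%). Listed end sites had a median of 10 reads in both libraries, against 18 in Bull1 and 15 in Bull2 in the rest. The part of depth in the lower share was not tested.

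Among called 1 kb end windows with at least 10 reads per used site in both libraries, the 5 with the largest difference in each direction had adjusted p between 7.46e-11 and 0.0159 by the exact test of summed reads. They were then read site by site, because a sum over sites also moves when the libraries cover the sites unequally. The largest gain in Bull1 among them lay on autosome 26 from 50431432 to 50432431, with 81.4% (57 of 70 reads) against 42.9% (30 of 70 reads) over 6 used sites, a difference of 38.6 points. Its last site, at 50432111, was unmethylated in both bulls, with 0 of 10 reads in Bull1 and 0 of 33 in Bull2, and 3 of the other 5 sites were equal in both. On autosome 28 from 45165534 to 45166533 the sums gave 85.6% against 49.04%, and here too the site at 45166522 had 0 of 6 and 0 of 40 methylated reads. In a Mantel-Haenszel test, which compared the bulls within each site, neither window passed the adjusted threshold.

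The other gains were on autosome 19 from 62259358 to 62260357 (66.9% against 37.1%, 30 sites), autosome 16 from 80193647 to 80194646 (78.5% against 49.4%, 5 sites) and autosome 10 from 103433012 to 103434011 (61.6% against 35.5%, 27 sites). The autosome 16 window was higher in Bull1 at 5 of 5 sites and passed the test by site, and too few of its sites had 10 reads for a test at that minimum. The autosome 19 window was higher at 24 of 30 sites and passed the test by site, but with at least 10 reads per site its difference was 3.99 points and the call was lost. Most of its differing sites had under 10 reads in 1 library and were left out there. An example is 62259368, with 5 of 9 methylated reads in Bull1 and 2 of 10 in Bull2. The autosome 10 window did not pass the test by site.

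The losses in Bull1 were on autosome 29 from 51165188 to 51166187 (31.2% against 57.5%), autosome 2 from 137047377 to 137048376 (28.8% against 54.2%), autosome 14 from 83899306 to 83900305 (61.6% against 83.1%), autosome 2 from 136288377 to 136289376 (52.0% against 72.8%) and autosome 27 from 44606864 to 44607863 (41.1% against 61.9%). By site, the call was lost on autosome 29, in the second window of autosome 2 and on autosome 27. With at least 10 reads per site the second window of autosome 2 differed by -1.43 points. The autosome 14 window passed the test by site, but with at least 10 reads its difference was -0.826 points. That minimum left out most of the sites where the bulls differed. The first, at 83899307, had 2 of 18 methylated reads in Bull1 and 3 of 6 in Bull2. The smaller difference therefore does not describe those sites. The first window of autosome 2 lay 12 kb from the largest listed position. It was lower in Bull1 at 10 of 12 sites, for example with 4 of 14 methylated reads against 10 of 14 at position 137047504, and passed the test by site. In summed reads it also passed with at least 10 reads per site, where the difference was -23.2 points, and with at least 1 read, where it was -12.2 points. Over all end windows, the test by site called 8844 (16.4%, against 11.4% of all windows). This test allows for unequal coverage of the sites, but it too counts a read at every site that it spans. Sites of a window are thus not separate support. The 12 sites of the first autosome 2 window lay between 137047390 and 137047665, with 132 and 131 summed reads.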

How the data were processed

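WGBS libraries of sperm DNA with a lambda DNA spike were trimmed by the authors with Trim Galore 0.4.0, checked with FastQC 0.11.2, aligned to UMD3.1 with Bismark and bowtie2 and cleared of duplicates. The deposited files gave counts of methylated, unmethylated and all reads per CpG site, not normalized. They also gave the methylation level as a fraction, which the authors computed from these counts and which equalled their ratio within 5e-07. Neither the base from which positions are counted nor the summing of strands is given in the sources used here.

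From there every value was computed from the counts in Python with numpy 2.4.6, scipy 1.17.1 and numba 0.67.0. Sites with at least 5 reads in both libraries were used. A level was methylated over all reads, summed over sites. Windows of 1 kb and 100 kb were counted back from the largest listed position of each autosome, and 1 kb windows needed 5 used sites. Bulls, and ends and rest, were compared with two-sided Fisher exact tests on summed reads with Benjamini-Hochberg adjustment at 0.05. The window test between bulls was also run on simulated reads, drawn independently at each site of 1 autosome. Reads spanning several sites were not simulated, so that check cannot show how far they lower p. Intervals of a level are exact Clopper-Pearson at 95%. Those of the bull difference at the ends minus the rest are 95% normal approximations from binomial counting error. Because sums also move when sites are unequally covered, a Mantel-Haenszel test stratified by site was added after seeing the data.

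Autosomes named were those with the highest and lowest end level, the largest difference from the rest in each direction, and the largest and smallest bull difference. The 3 lowest and 3 highest 100 kb windows were named, and the 5 called 1 kb windows of largest difference per direction with at least 10 reads per used site in both libraries. Other named items were chosen after their values were seen. The ends, classes and tests were chosen with earlier results of these data known. Gene names and sequences were not used here, because the reference at hand is of another build. Each bull is a group of 1 library, and the tests on reads measure counting error within these libraries. The test on counts of low windows took windows as independent.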

Additional observations from a re-analysis of the deposited data

Results flagged for a closer look

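The CpG sites at the ends that were left out by the coverage minimum were flagged as data outside the comparisons above. They numbered 374876, or 25.2% of listed end sites, and 331804 of them had reads in both libraries. Their level summed over reads was 66.5% in Bull1 and 62.9% in Bull2, below the 77.9% and 74.6% of used end sites. Of the left-out end sites 34.0% belonged to the densest CpG class, against 8.48% of used ones. Left-out sites in the rest of the autosomes were at 51.2% and 43.4%.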

How the results depend on the processing

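No paired analysis was possible because the series has 1 library of either bull. The minimum of 1 read, the test by site and the density-weighted count of autosomes were chosen after seeing the data. Of the values recomputed under single alternatives for results that answer a comparison, 117 stayed alike, 21 moved and 8 reversed. For differences, alike meant the same direction and side of the threshold (some at a much smaller size). For counts it meant only a limited change in size, without a check of direction, and counts that changed more were those that moved. With at least 20 reads per site, end minus rest reversed to -0.964 and -0.591 points and the excess of low 1 kb windows to -0.463 and -0.329 points. The latter also reversed with at least 10 used sites, to -0.947 and -0.840, and end minus rest with an end of 500000 bp, to -5.63 and -5.005. Weighted to CpG density, 4 autosomes in Bull1 and 3 in Bull2 had an end below the rest. A count of lower ends could also stay alike while its autosomes changed, as given above for site means. On autosome 11 the difference reversed for site means to 1.97 and 2.97 and, in Bull2, to 0.575 with the coverage maximum. On autosome 10 in Bull2 it reversed to 0.239 and 0.0494 under the same 2 settings, coverage maximum first. On autosome 13 it reversed to 4.52 and 5.24 for an end of 1000000 bp and to 6.08 and 6.69 for 500000 bp, which leave out its deep block. The autosome 14 window at 83899306 reversed to 2.36 points with at least 20 reads, a minimum that left out the sites where the bulls differed most. The other causes were not tested.

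Against 7748 windows of 1 kb called, 1872 were called with at least 20 reads (12.1% of end windows against 10.1% of all), 3303 at a false discovery rate of 0.01 (6.14% against 3.29%), 135 with a difference of at least 20 points (0.251% of end windows against 0.297% of all, the reverse of the order at the main setting), 1 with 1 site per window, and 2375 against the odds ratio of all used sites, 1.235 (4.42% against 2.43%). Of the latter, 1563 were higher and 812 lower in Bull1. Ends of 1000000, 500000 and 5000000 bp gave 3763, 1752 and 18425 called windows. These lengths hold other numbers of windows, so the counts alone show no change in the share called. The tests were the same, with 9.68% of all windows called. The 574 windows of 100 kb became 288, 143 and 1435 for these lengths, again following the number of windows, with 97.7% of all windows called. Against the odds ratio they became 315 (54.3% of end windows against 62.7% of all, also reversed in order). With a difference of at least 20 points they became 0. The 2 sites called became 0 with the coverage maximum and at 0.01, 1 for both shorter ends, 1 with Bull1 thinned to the depth of Bull2, and 62 against the odds ratio, all of them lower in Bull1 and near the background (0.00557% against 0.00517% of all sites). Median coverage was 10 reads in both libraries over listed end sites, and with at least 20 reads 3 end sites were called (0.00172% against 0.00132%).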

Other observations

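Runs of windows with low methylation were found at every end. Their levels differed, and the longest run of autosome 23, of 5 windows, was at 16.4% in Bull1 and 13.4% in Bull2. The share of 1 kb windows below 20% in both bulls ran from 1.43% on autosome 6 to 10.6% on autosome 18, where the rest of the autosome had 4.88%. The longest run lay on autosome 16 from 80758647 to 80766646, with 8 windows, 247 used sites and levels of 2.36% in Bull1 and 1.28% in Bull2. On autosome 20 a run of 6 windows from 70931161 to 70937160 was at 0.444% and 0.541% over 171 sites. On autosome 26 a run of 6 windows from 51109432 to 51115431 was at 0.668% and 1.01% over 139 sites. Of 2058 end windows low in Bull1 and 2126 low in Bull2, 1918 were low in both.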
